A study of Mus musculus with 24 samples.

Results

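The fetal epididymis of the mouse was compared between embryonic day 14.5 (E14.5) and embryonic day 16.5 (E16.5) on 4 arrays, 2 at each age, of the 24 arrays in the series. The arrays were chosen by their labels alone, with tissue epididymis and age E14.5 or E16.5. The mice were male and of the CD1 strain, with no treatment or genetic change named, and total RNA was extracted with Trizol and its biotin-labelled copy was hybridised to Affymetrix arrays. The other 20 arrays hold the epididymis at E18.5 and on postnatal day 1 (P1), and the efferent duct and vas deferens at all 4 ages, again with 2 arrays for each tissue and age. The labels do not say how many embryos went into an array or whether the replicates came from separate litters. The p-values therefore measure a spread between replicates, pooled over all 24 arrays, which may be technical. The labels also do not say where the epididymis was separated from the neighbouring ducts and gonad.

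The epididymis forms from the upper part of the Wolffian duct, a simple epithelial tube in loose mesenchyme that is kept in males by androgen from the testis. Before birth the tube elongates and coils, and the mesenchyme around it begins to form fibroblast layers and smooth muscle. The Mullerian duct, the anlage of the oviduct and uterus, runs alongside the Wolffian duct. In males it regresses when anti-Mullerian hormone from Sertoli cells acts on its receptor, AMHR2, in the mesenchyme that surrounds that duct. WNT, BMP, FGF, hedgehog and retinoid signals pass between epithelium and mesenchyme during these steps.

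All values below are log2 ratios of a probe set to its own median over the 24 arrays. A value of 0 is that median, and a difference of 1 between arrays is a 2-fold difference. Such ratios compare arrays for a gene and hold no level, so genes cannot be ranked by abundance and the presence or absence of the epithelial and mesenchymal markers cannot be read from them. Each of 18193 genes was represented by 1 probe set. A gene is said to have changed, or to have been called, when the adjusted p from limma, a linear model fitted to all 24 arrays, was under 0.05. Differences are E16.5 minus E14.5 on the log2 scale, with the SE from that model and n = 2 arrays at each age. In whole tissue, fewer cells of a type and less RNA per cell cannot be told apart.

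The 2 arrays of E14.5 were unlike each other. In replicate 2 the log2 ratio of the 5' minus that of the 3' probe sets of the added polyadenylated control RNAs was -1.02, against 0.36 in replicate 1 and 0.55 and 0.5 at E16.5. The same 5' minus 3' difference in replicate 2 was -0.54 for Gapdh and -0.81 for Actb, against 0.00 to 0.18 on the other 3 arrays. Between the E14.5 arrays 650 genes were at least 2-fold lower in replicate 2 and 48 at least 2-fold higher, while the E16.5 arrays differed that much in 2 and 3 genes. Across genes, which are not independent replicates, log2 ratios of the E14.5 arrays correlated at 0.423 and those of E16.5 at 0.849. The 3' probe sets of the added RNAs also separated the ages, at 0.70 and 0.79 at E14.5 and -1.40 and -1.45 at E16.5, as did the 3' probe set of 18S ribosomal RNA, at 1.26 and 3.26 against 0.31 and 0.07. The part of these differences in the results was not tested. The gap between replicates had an SD over genes of 0.43 at E14.5 and 0.15 at E16.5, while limma pools the spread of all groups. Each gene is therefore set against each E14.5 array alone, and many but not all counts are also given without replicate 2.

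Between E14.5 and E16.5, 2603 genes changed, 14.3% of the 18193 tested. Of these 1482 (8.15% of all genes) were higher at E16.5 and 1121 (6.16%) were lower. At 2-fold or more 292 genes were higher and 78 lower, and 150 and 43 of them were at least 2-fold from each E14.5 array alone. Without E14.5 replicate 2 there were 1313 calls, of which 1034 were among the 2603 and in the same direction, 39.7% of the full set and 78.8% of the smaller set. Leaving out replicate 1 of E16.5 left 956 calls and leaving out its replicate 2 left 1053, while leaving out E14.5 replicate 1 gave 3918. The arrays of E16.5 lay above both E14.5 arrays for 25.5% of all genes and below both for 32.7%.

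**Figure D1:**
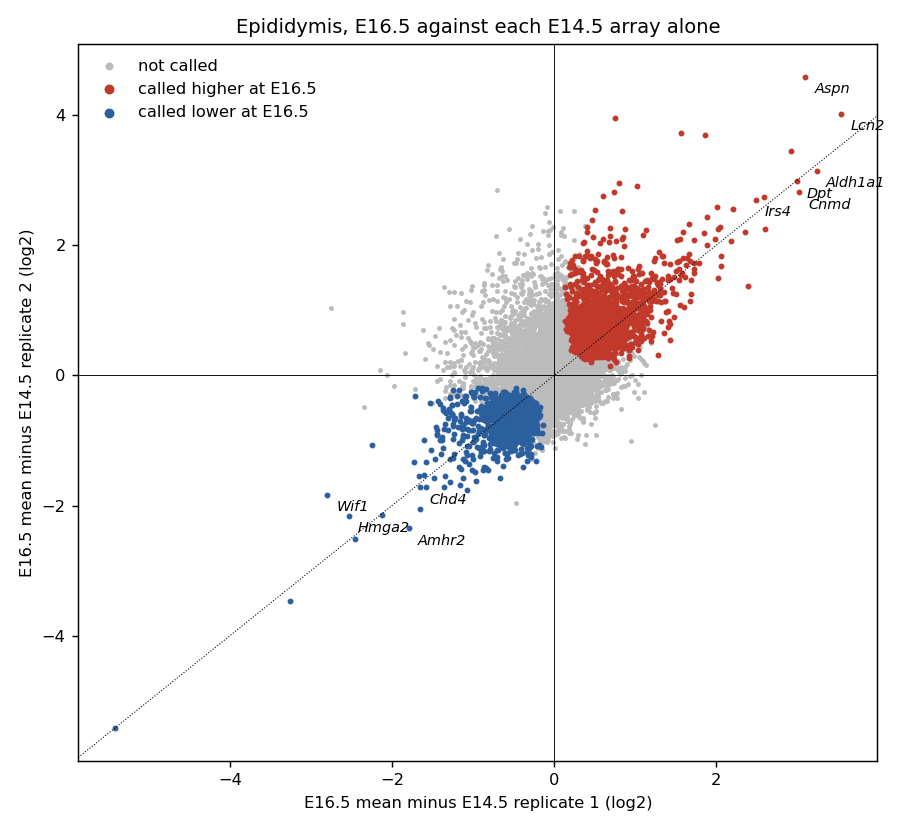
Difference of the E16.5 mean from E14.5 replicate 1 (horizontal axis, log2) and from E14.5 replicate 2 (vertical axis, log2) for each of 18193 genes, with the dotted line marking equal differences. Red and blue points are genes called higher and lower at E16.5. Lcn2 (3.54 and 4.02) and Aldh1a1 (3.24 and 3.14) lie near the line, while the red points high above it are genes that differ mainly from replicate 2.

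The genes that rose most from both E14.5 arrays were Lcn2, Aldh1a1, Aspn, Dpt, Pdlim3, Cnmd, Ripor2, Irs4, B4galnt2, Mkx, Maob and Myocd. Lcn2, a secreted lipocalin that binds iron-carrying siderophores, was at -2.85 and -3.33 at E14.5 and at 0.81 and 0.56 at E16.5. Its arrays did not overlap, which the ranking required, and it rose by 3.78 (SE 0.36, 13.7-fold, adjusted p = 2.7e-06). Aldh1a1, an enzyme that makes retinoic acid from retinaldehyde, stood at -4.32 and -4.22 and then at -0.90 and -1.26, a rise of 3.19 (SE 0.26, 9.13-fold, adjusted p = 3.84e-07). Aspn and Dpt encode asporin and dermatopontin, small matrix proteins of connective tissue. Aspn went from -3.91 and -5.39 to -0.71 and -0.91, so the gap to replicate 1 (3.10) was smaller than the gap to replicate 2 (4.59). Dpt stood at -3 and -2.98 and then at -0.02 and 0.02, a rise of 2.99 (SE 0.22, adjusted p = 1.46e-07) in which the arrays of each age nearly coincided.

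Pdlim3, which codes for an actinin-binding protein of muscle, rose from -2.65 and -3.18 to 0.30 and 0.23, by 3.18 (SE 0.18, 9.07-fold, adjusted p = 1.19e-08). Cnmd, the cartilage and tendon glycoprotein chondromodulin, rose from -2.41 and -2.21 to 0.59 and 0.63. Mkx, the homeobox factor Mohawk of tendon and muscle connective tissue, rose from -1.06 and -0.89 to 1.44 and 1.18. These genes of contractile and fibrous tissue stand beside genes with other roles. Ripor2, an inhibitor of the GTPase RhoA, rose from -1.85 and -1.99 to 0.73 and 0.76, and its 3 other probe sets differed by 0.94 to 1.45. Irs4, an adapter of the insulin and IGF receptors, rose from 0.23 and 0.02 to 2.76 and 2.68, although its other probe set differed by -0.14. B4galnt2, a glycosyltransferase, rose by 2.42 (SE 0.17, adjusted p = 1.16e-07), with -0.08 to 1.09 at 3 other probe sets, and Maob, monoamine oxidase B, rose by 2.37 (SE 0.15, adjusted p = 2.12e-08).

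Leaving out gene families with shared sequence such as the globins, which fell further and are given below, the genes that fell most below both E14.5 arrays were Hmga2, Msx2, Wif1, Amhr2, Wnt7a, Chd4, Gata5, Brinp1, Hand2, Nos1, Smarca4 and Wnk1. Hmga2, an architectural chromatin protein of embryonic cells, was at 2.90 and 2.52 at E14.5 and at 0.21 and 0.52 at E16.5. It fell by 2.34 (SE 0.26, 5.08-fold, adjusted p = 1.74e-05), and its 3 other probe sets differed by -2.12 to -0.52. Gata5 and Hand2 are transcription factors of mesoderm. Gata5 fell from 2.04 and 2.16 to 0.50 and 0.41, and Hand2 fell from 2.53 and 2.45 to 0.88 and 0.96. Brinp1 fell from 1.82 and 1.69 to 0.23 and 0.08. Nos1, neuronal nitric oxide synthase, fell from 1.5 and 1.6 to 0.06 and -0.03, while its 3 other probe sets differed by -0.81 to 0.20. That all 4 genes were lower on each E16.5 array than on either E14.5 array was a condition of the ranking.

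Chd4 and Smarca4, the motor subunits of the NuRD and BAF chromatin remodelling complexes, and Wnk1, a kinase that regulates ion transport, also fell at the probe sets used. Chd4 went from 1.06 and 1.13 to -0.66 and -0.51, but its 2 other probe sets differed by only -0.55 and -0.37. Wnk1 went from 1.01 and 1.2 to -0.10 and -0.58 (adjusted p = 0.00987), while its 2 other probe sets differed by -0.10 and 0.26. Without E14.5 replicate 2 the adjusted p of Wnk1 was 0.0668, and without E16.5 replicate 2 it was 0.113. Smarca4 fell by 1.54 (SE 0.31, adjusted p = 0.00291) at its probe set, with -0.70 at the other.

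From E16.5 to E18.5, in a contrast that shares the E16.5 arrays, 8.16% of all genes were called, 4.11% higher and 4.05% lower. Lcn2 stood at 2.18 and 2.20 at E18.5 and at 2.63 and 2.85 on P1, and Irs4 at 3.94 and 3.92 and then 4 and 4.1. Maob was 1.92 higher at E18.5 than at E16.5 (adjusted p = 2.14e-06), and Aldh1a1 was 1.82 higher (adjusted p = 0.000359). Cnmd, Ripor2, Mkx and Myocd were at most 0.51 higher at E18.5, with adjusted p of 0.181 to 0.788. Among the falling genes Hmga2 was a further 1.80 lower at E18.5, at -1.65 and -1.21 (difference -1.80, adjusted p = 0.000561). Chd4 was higher again at E18.5, at 0.25 and 0.44 (difference 0.93, adjusted p = 0.0167), and Wnk1 likewise, at 0.74 and 0.94 (difference 1.18, adjusted p = 0.0445).

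**Figure D2:**
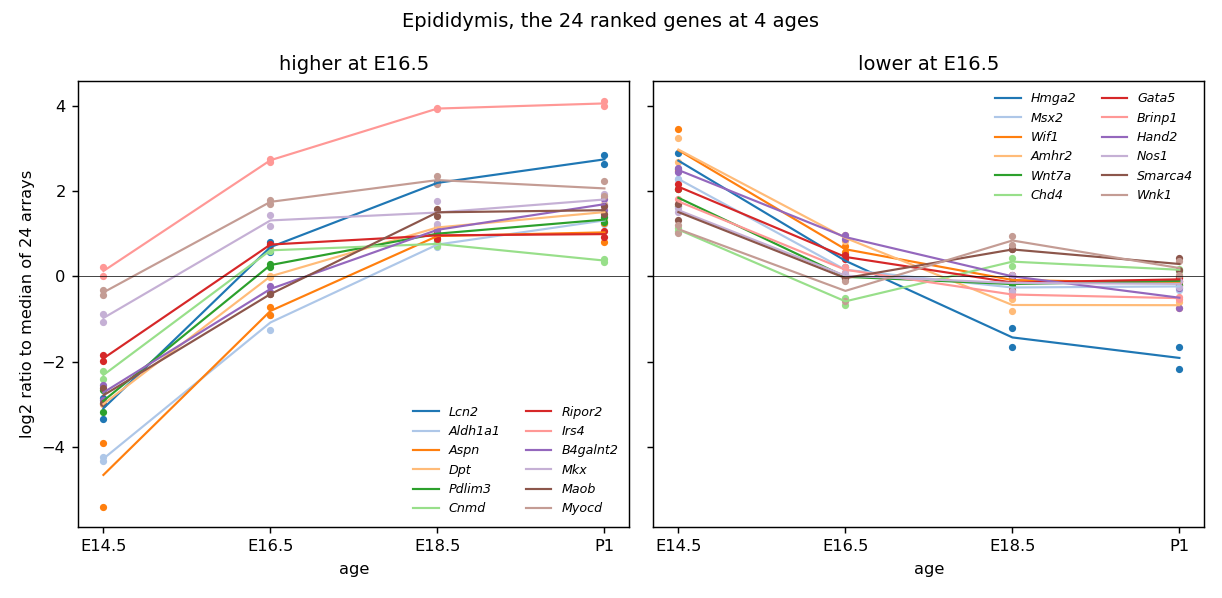
Log2 ratio to the median of the 24 arrays (vertical axis) in epididymis at 4 ages (horizontal axis) for the 12 genes that rose and the 12 that fell most between E14.5 and E16.5, globins and other gene families left out. Points are arrays and lines join the means of 2. The rising genes lie between -5.39 and 0.23 at E14.5, and Hmga2 is the falling gene that lies far below the others on P1, at -1.65 and -2.17.

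Whether a change differed from that of the other ducts over the same interval was tested as the epididymal difference minus the mean difference of efferent duct and vas deferens. This contrast called 293 genes, 1.61% of all, 148 higher (0.813%) and 145 lower (0.797%), and 134 without E14.5 replicate 2. The 4 efferent duct arrays entering it had wide interquartile ranges of the log2 ratio, 0.48 to 0.61. Epididymal and vas deferens arrays at those ages had 0.22 to 0.32. Hybridisation controls averaged -1.31 to -0.4 on these efferent duct arrays, against -0.24 to 0.28 on the epididymal and vas deferens arrays. The part of these array differences in the calls was not tested. Irs4 had a change 2.01 larger in epididymis than in the mean of the other ducts (SE 0.24, adjusted p = 0.000386), where it differed by 0.77 in vas deferens and 0.40 in efferent duct. Mkx had a change 2.09 larger (SE 0.27, adjusted p = 0.000902) and differed by 0.37 and 0.02 in those ducts. Chd4 went the other way from vas deferens, with 0.94 there, -0.30 in efferent duct and a difference in change of -2.01 (SE 0.28, adjusted p = 0.00102). Against vas deferens alone, the difference in change remained past the threshold for Irs4 (1.83, adjusted p = 0.00176) and Mkx (1.91, adjusted p = 0.00304). Lcn2 rose in all 3 ducts, by 2.22 in vas deferens and 4.53 in efferent duct, and its difference in change was 0.40 (SE 0.44, adjusted p = 0.724).

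The Mullerian duct list held 18 genes, all measured, of which 0 rose and 5 fell, against 6.16% of all genes. Its median difference was -0.18, against -0.04 over all genes. With E14.5 replicate 2 left out 6 members fell, and with each of the other 3 arrays left out 4 fell, with 2 rises without E14.5 replicate 1. In vas deferens 2 members rose and 6 fell, where 7.05% of all genes fell, and in efferent duct 1 rose and 1 fell, where 4.78% fell. Of the 6 ligands and receptors in the list, Amhr2 and Wnt7a fell. Amhr2, the receptor of anti-Mullerian hormone, was at 2.69 and 3.25 at E14.5 and at 0.82 and 0.98 at E16.5. It fell by 2.07 (SE 0.23, 4.19-fold, adjusted p = 1.83e-05), and its 2 other probe sets differed by -2.27 and -1.39. Wnt7a, a ligand of the Mullerian epithelium, fell from 1.64 and 2.04 to 0.01 and -0.03 (difference -1.85, SE 0.22, adjusted p = 3.68e-05), with -0.16 and -0.06 at 2 other probe sets. Amh itself differed by -0.18 and was not called.

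Among the 12 signals and targets of the list, Wif1, Sp7 and Mmp2 fell. Wif1, a secreted WNT inhibitor, was at 3.44 and 2.47 and then at 0.70 and 0.57, which is a difference of -2.31 (SE 0.28, 4.97-fold, adjusted p = 4.18e-05). Sp7, the transcription factor osterix, was at 1.07 and 1.39 and then at 0.24 and 0.06. Mmp2, a matrix protease, fell from 0.66 and 0.58 to 0.18 and 0.19, and its call was lost without any 1 of the 4 arrays. In the same interval Wif1 differed by -2.32, Amhr2 by -2.52, Wnt7a by -2.27 and Sp7 by -1.05 in vas deferens. In efferent duct these 4 genes differed by -0.37 to -0.01, none called. The difference in change between epididymis and the mean of both ducts was not called for any of these 4, with adjusted p of 0.112 to 0.308. At E18.5 Amhr2 stood lower again in epididymis, at -0.53 and -0.81 (difference -1.57, adjusted p = 0.000659).

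**Figure D3:**
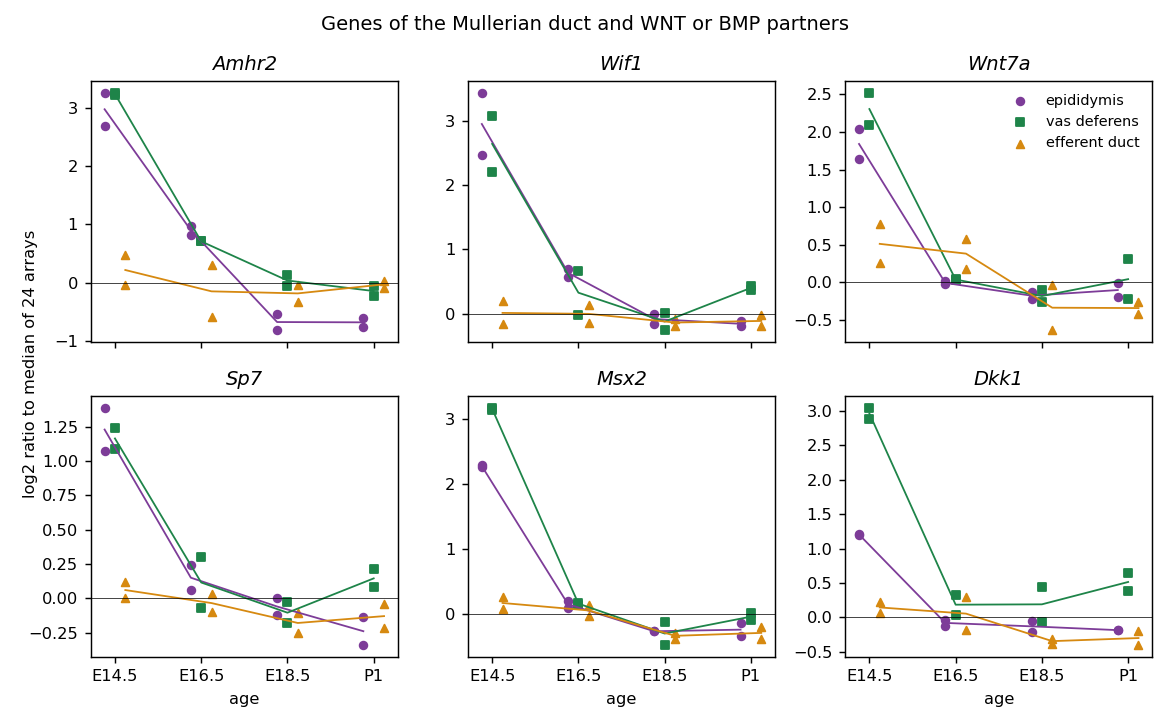
Log2 ratio to the median of the 24 arrays (vertical axis) at 4 ages (horizontal axis) for 6 genes in epididymis (circles), vas deferens (squares) and efferent duct (triangles). Points are arrays and lines join the means of 2. Amhr2 lies at 2.69 to 3.25 at E14.5 in epididymis and vas deferens and at 0.71 to 0.98 at E16.5, while in efferent duct it lies between -0.59 and 0.48 at all ages.

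The promoter of Amhr2 is shown because this receptor marks the mesenchyme of the Mullerian duct and its 3 probe sets differed in the same direction. The 250 bases before its start in RefSeq, assembly GRCm38.p6, at chr15:102445117-102445366 on the + strand, are printed 5′ to 3′ with AAGGTCA, a short site bound by nuclear receptors such as SF-1, in capitals.
Amhr2: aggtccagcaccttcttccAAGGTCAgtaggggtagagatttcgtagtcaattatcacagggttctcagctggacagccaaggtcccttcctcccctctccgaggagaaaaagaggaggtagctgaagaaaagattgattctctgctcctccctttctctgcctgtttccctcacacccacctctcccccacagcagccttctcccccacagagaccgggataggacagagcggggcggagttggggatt
The match lies at bases -231 to -225 from the start. Counting both strands, AAGGTCA occurs in 4.08% of 32851 such windows. Among the Mullerian list 15 genes have a window and 1 holds it. A gene was counted if any of its windows held the site, so this count and the share of windows are unlike measures. A match of letters is a description and shows no binding.

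In the WNT list 9 of 51 measured members fell and 5 rose, against 6.16% and 8.15% of all genes, so the share that rose lay near that of all genes. Of 11 inhibitors 4 fell and 1 rose, and of 17 ligands 3 fell and 2 rose. Besides Wif1, the inhibitor Notum, an enzyme that removes the lipid from WNT proteins, fell from 1.05 and 1.5 to -0.02 and -0.14. Dkk1, which blocks the LRP co-receptors, fell from 1.21 and 1.2 to -0.12 and -0.04 (difference -1.29, SE 0.17, 2.44-fold, adjusted p = 9.04e-05). Notum also fell in vas deferens (difference -1.37) but rose in efferent duct (1.18), and its difference in change was -1.26 (SE 0.24, adjusted p = 0.0121). Among the secreted frizzled-like inhibitors Sfrp5 had a difference of -0.53 and Sfrp2 of 0.74, and both calls were lost without E14.5 replicate 2.

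Among WNT ligands Wnt4 fell from 2.02 and 2.21 to 1.11 and 1.10, and Wnt11 fell from 1.10 and 0.94 to 0.27 and 0.25. Wnt5a, a ligand of mesenchyme that acts largely outside the beta-catenin pathway, rose from 0.72 and 0.83 to 1.73 and 1.84 (difference 1.01, SE 0.14, adjusted p = 0.000141). Its 3 other probe sets differed by -0.08 to 0.37, and the rise was lost with the mean of all probe sets. Its change exceeded that of the other ducts by 1.30 (adjusted p = 0.00096). Of the 8 targets Nkd1 fell and Znrf3 rose. With E14.5 replicate 2 left out 9 members fell and 2 rose, and over leaving out each array in turn 7 to 11 fell and 2 to 8 rose. Of the 18 genes for planar cell polarity, the system that orients cells as a tube elongates, 0 passed limma's adjusted threshold. This depended on the setting, with 1 lower without E14.5 replicate 2, 4 lower without E14.5 replicate 1, and 1 higher and 3 lower under quantile normalization.

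In the BMP, activin and TGF-beta list 7 of 44 members rose and 8 fell, against 8.15% and 6.16% of all genes. With E14.5 replicate 2 left out the counts were 3 and 8, and leaving out either E16.5 array left 3 or 4 higher. Among 15 ligands 4 rose and 0 fell. Bmp4 rose from -0.22 and -0.34 to 0.56 and 0.42, by 0.77 (SE 0.13, adjusted p = 0.000637). Inhbb, the beta-B subunit of activin and inhibin, rose from -0.90 and -1.15 to 0.33 on both E16.5 arrays, though its other probe set differed by -0.06. The calls of the other risen ligands, Inhba and Tgfb2, were lost without E14.5 replicate 2.

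Of the 10 inhibitors 4 fell and 1 rose. Fst, follistatin, which binds activins, fell from 0.74 and 0.49 to -0.69 and -0.99 (difference -1.46, SE 0.26, adjusted p = 0.00111). Smad6, an intracellular brake on BMP signals, fell from 1.63 and 1.09 to 0.26 on both arrays. Bambi, a decoy receptor, fell by 0.60 (SE 0.13, adjusted p = 0.00604). Sostdc1, an inhibitor of BMP and WNT ligands, was the riser, from -0.35 and -0.64 to 0.77 and 0.60. Among the targets Msx2, a homeobox gene induced by BMP, fell from 2.27 and 2.29 to 0.10 and 0.21 (difference -2.13, SE 0.12, 4.37-fold, adjusted p = 1.19e-08), while its other probe set differed by 0.00. In vas deferens Msx2 fell by 3, and in efferent duct it differed by -0.12 (adjusted p = 0.617).

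In the smooth muscle list 11 of 25 members were higher at E16.5 and 0 lower, against 8.15% and 6.16% of all genes, and the median difference was 0.34. Leaving out E14.5 replicate 2 gave 7 higher and 2 lower, and leaving out either E16.5 array also gave 7 higher. The lower ones were Cald1 and Itga8, whose E14.5 arrays differed widely, at 0.51 and -1.26 for Cald1 and at 1.49 and -0.92 for Itga8. The 7 kept without that array were Acta2, Myh11, Tagln, Cnn1, Myl9, Tpm2 and Myocd.

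Myocd, the cardiac and smooth muscle coactivator of serum response factor (SRF), was at -0.43 and -0.32 at E14.5 and at 1.80 and 1.69 at E16.5. It rose by 2.12 (SE 0.22, 4.34-fold, adjusted p = 5.74e-06), with 0.82 at its other probe set. Of the 6 other regulators, SRF included, 0 were called in either direction by limma. Myh11, the smooth muscle myosin heavy chain, rose from -0.96 and -0.58 to 1.18 and 1.04, by 1.87 (SE 0.16, adjusted p = 1.09e-06), with 0.09 at its other probe set. Acta2, smooth muscle alpha-actin, rose from -1.53 and -1.31 to 0.22 and 0.10, by 1.57 (SE 0.10, adjusted p = 3.66e-08), with 0.16 and 0.20 at 2 others. Tagln, the actin-binding transgelin, stood at -1.08 and -1.06 and then at 0.51 and 0.45. Myl9, the regulatory light chain of smooth muscle myosin, stood at -0.35 and -0.46 and then at 0.97 and 0.90. For each of these genes both E16.5 arrays lay well above both E14.5 arrays.

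In vas deferens 8 members of the list rose and 0 fell, against 7.07% and 7.05% of all genes. In efferent duct 2 rose and 4 fell, against 7.5% and 4.78% of all genes. The rise of 7 smooth muscle genes exceeded the mean of the other ducts, namely Tagln, Myh11, Myocd, Myl9, Acta2, Cnn1 and Actg2, against 0.813% of all genes higher in that contrast. In efferent duct Tagln and Actg2 fell, and Acta2, Myl9, Cnn1, Myh11 and Myocd differed by -0.55 to 0.23 without a call. In vas deferens Acta2 rose by 1.52, Myocd by 1.53, Myl9 by 1.12, Myh11 by 0.81 and Tagln by 0.43. Against vas deferens alone 2 members differed, Myh11 by 1.06 and Tagln by 1.12, where limma called 93 of 18193 genes higher and 178 lower. At E18.5 Myh11 stood at 2.71 and 2.59, Actg2, a smooth muscle gamma-actin, at 1.91 and 1.74, and Cnn1, calponin, at 1.71 and 1.58.

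**Figure D4:**
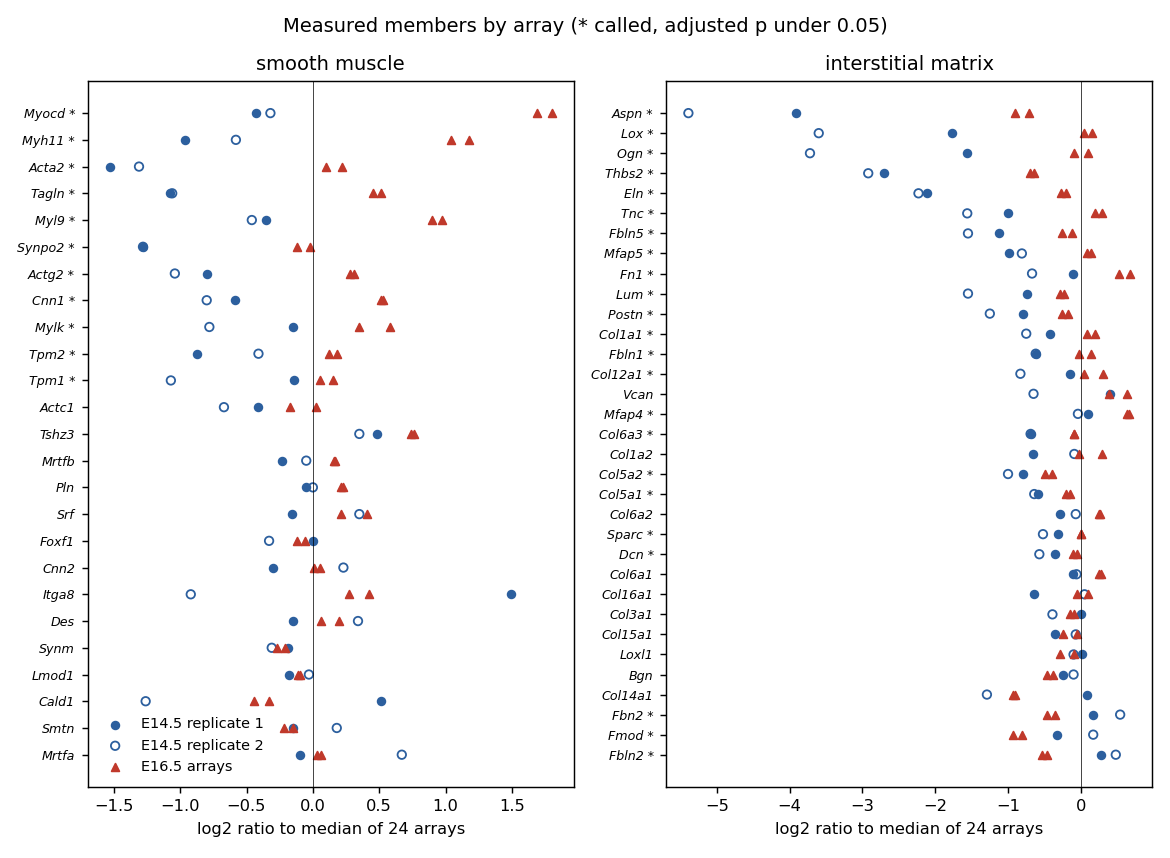
Log2 ratio to the median of the 24 arrays (horizontal axis) for each measured member of the smooth muscle list and the interstitial matrix list (rows), with filled circles for E14.5 replicate 1, open circles for E14.5 replicate 2 and triangles for the E16.5 arrays. Asterisks mark genes called. Myocd, Myh11 and Acta2 have both triangles far to the right of both circles, while Itga8 and Cald1 have triangles between their circles.

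The promoters of Myl9 and Acta2 are shown because SRF and Myocd act on contractile genes through the CArG box, a pair of C and a pair of G bases around an A/T core. The windows are the 250 bases before the start in RefSeq, assembly GRCm38.p6, printed 5′ to 3′, at chr2:156775214-156775463 on the + strand for Myl9 and chr19:34255374-34255623 on the - strand for Acta2. Capitals mark a strict CArG box.
Myl9: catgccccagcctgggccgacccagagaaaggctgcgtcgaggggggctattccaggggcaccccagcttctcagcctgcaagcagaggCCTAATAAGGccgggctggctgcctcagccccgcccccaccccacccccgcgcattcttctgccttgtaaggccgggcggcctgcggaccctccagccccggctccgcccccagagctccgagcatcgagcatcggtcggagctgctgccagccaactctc
Acta2: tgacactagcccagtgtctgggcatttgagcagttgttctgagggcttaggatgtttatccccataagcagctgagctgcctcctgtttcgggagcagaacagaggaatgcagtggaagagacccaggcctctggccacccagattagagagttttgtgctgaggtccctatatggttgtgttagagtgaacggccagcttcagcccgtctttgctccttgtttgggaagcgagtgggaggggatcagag
Myl9 holds the box at bases -161 to -152, and no strict box lies in this window of Acta2. The Acta2 window does hold CCCTATATGG and CCTTGTTTGG, and the Myl9 window also holds CCTTGTAAGG. Each of these differs from the strict box by 1 base and is not in capitals. Such near matches were not searched for or counted, so the lack of a strict box does not mean that SRF sites are absent. The strict box occurs on either strand in 1.47% of 32851 windows. It occurs in 4 of the 20 smooth muscle genes with a window and in 1 of the 7 that rose and have a window. A gene was counted if any of its windows held the box, so these counts and the share of windows are unlike measures. These counts describe letters and show no binding.

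The interstitial matrix list holds collagens, proteoglycans and elastic fibre proteins of connective tissue. Of its 33 measured members 20 were higher and 3 lower, against 8.15% and 6.16% of all genes, and the median difference was 0.58. Leaving out E14.5 replicate 2 gave 11 higher and 1 lower, and leaving out either E16.5 array also gave 11 higher. Vas deferens had 19 higher and 3 lower, against 7.07% and 7.05% of all genes, and efferent duct had 6 higher and 1 lower, against 7.5% and 4.78%. In the contrast with the mean of both ducts 5 members were higher in epididymis and 0 lower, against 0.813% and 0.797% of all genes. Against vas deferens alone 0 were higher and 1 lower, where limma called 93 genes higher and 178 lower in all.

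Eln, elastin, stood at -2.11 and -2.23 at E14.5 and at -0.27 and -0.20 at E16.5, a rise of 1.94 (SE 0.18, 3.84-fold, adjusted p = 2.44e-06). Lox, the enzyme that cross-links elastin and collagen, stood at -1.77 and -3.60 and then at 0.16 and 0.04. Its rise was 1.86 against replicate 1 alone and 3.70 against replicate 2 alone, and both differences were past 2-fold. Fbln5, which helps to assemble elastic fibres, rose from -1.13 and -1.55 to -0.12 and -0.26, and Mfap5, a microfibril protein, rose from -0.99 and -0.81 to 0.14 and 0.08. Of the fibrillin and fibulin genes Fbn2 and Fbln2 fell, Fbln2 from 0.28 and 0.48 to -0.46 and -0.54. The other probe set of Fbn2 differed by 0.55, the opposite direction.

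Thbs2, an antiangiogenic matrix protein, rose from -2.70 and -2.92 to -0.64 and -0.70, by 2.14 (SE 0.13, 4.40-fold, adjusted p = 1.84e-08). Its 2 other probe sets differed by 1.68 and 2.71. Ogn, the proteoglycan osteoglycin, was at -1.57 and -3.72 and then at 0.10 and -0.09, again with a wide gap between the E14.5 arrays. Tnc, tenascin C of mesenchyme near growing epithelium, rose from -1 and -1.56 to 0.20 and 0.29. Fibrillar collagen chains moved less, with Col1a1 higher by 0.73 (adjusted p = 0.0452), Col5a1 by 0.44 and Col5a2 by 0.46, and all 3 calls were lost without E14.5 replicate 2. Col3a1 differed by 0.07.

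In the basement membrane, the sheet under the epithelium, 4 of 24 members rose and 2 fell, against 8.15% and 6.16% of all genes. Under quantile normalization 3 rose and 6 fell, and over leaving out each array in turn 3 to 6 rose and 1 to 3 fell. The collagen IV chains Col4a5 and Col4a6, neighbours on the X chromosome, both rose, Col4a6 from 0.48 and 0.35 to 1.32 and 1.29. Col4a4 rose from -2.66 and -2.95 to -1.65 on both arrays, but under quantile normalization its difference was -0.24 and not called. Lama2, the laminin chain of muscle and mesenchyme, rose from -1.58 and -1.43 to -0.50 and -0.71. Lama5, a laminin chain of epithelia, fell by 0.50, and Col18a1 fell from 0.72 and 0.96 to 0.12 and 0.00.

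Epithelial adhesion genes and keratins showed 5 rises and 2 falls among 34, against 8.15% and 6.16% of all genes. The balance depended on the setting, with 5 rises and 6 falls without E14.5 replicate 1, 4 and 10 under quantile normalization, and 1 and 1 without E16.5 replicate 1. Epcam, an adhesion molecule of epithelia, rose from -0.58 and -0.77 to 0.16 and 0.19, by 0.85 (SE 0.11, adjusted p = 0.000106). Dsg2, a desmosomal cadherin, rose from -1 and -0.98 to 0.29 and 0.04, though its 5 other probe sets differed by -0.16 to 1.19. Cdh16, a cadherin of Wolffian and kidney epithelium, fell from -0.51 and -0.07 to -1.13 and -1.30, whereas it rose by 1.28 in efferent duct, a difference in change of -1.16 (adjusted p = 0.00096). Of 8 keratins 1 fell and 0 rose. Among 12 markers of the epididymal epithelium Epcam, Cldn7 and Lcn2 rose and 0 fell, and the median difference was -0.07. The mean log2 ratio of the list was -0.41 and -0.32 at E14.5 and -0.05 and -0.1 at E16.5, but without Lcn2 it was -0.19 and -0.05 and then -0.13 and -0.16. For 6 of the 12 both E16.5 arrays lay below both E14.5 arrays, against 32.7% of all genes. Leaving out E14.5 replicate 1 gave 2 rises and 3 falls, and quantile normalization gave 3 and 4.

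Receptor tyrosine kinase signalling had 9 rises and 4 falls among 49 members, and 5 and 7 without E14.5 replicate 2. Over leaving out each array in turn 5 to 14 rose and 2 to 7 fell, and under quantile normalization 10 rose and 9 fell, against 8.15% and 6.16% of all genes. The ligand Fgf7, which mesenchyme makes for epithelium, rose from -1.31 and -1.11 to 0.16 and 0.15, by 1.37 (SE 0.18, 2.58-fold, adjusted p = 7.78e-05), with 0.71 at its other probe set. The receptor Egfr rose from -1.08 and -1.23 to 0.26 and 0.13, though its 6 other probe sets differed by -0.29 to 0.45. Spry2, an inhibitor induced by FGF signals, rose from -0.48 and -0.89 to 0.35 and 0.59. The IGF-binding proteins split, with Igfbp6 higher by 0.94, Igfbp4 lower by 0.93 (difference -0.93) and Igfbp3 falling from 1.32 and 0.78 to -0.12 and -0.14. Igf1 had a rise of 1.31 that rested on replicate 2, with E14.5 arrays at -0.41 and -2.22.

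In the hedgehog list 3 of 15 members rose and 0 fell, and 2 rose without E14.5 replicate 2 or either E16.5 array. Shh, the ligand that epithelium sends to mesenchyme, rose from -0.43 and -0.90 to 0.49 and 0.43, by 1.13 (SE 0.14, 2.18-fold, adjusted p = 6.41e-05), with 0.13 at its other probe set. Shh stood at 1.43 and 1.36 at E18.5. For the hedgehog list the shares of all genes were 8.15% higher and 6.16% lower. The targets of the pathway were not uniformly higher, since Hhip rose by 0.98 (adjusted p = 0.0135), while Ptch1 differed by 0.25 (adjusted p = 0.262) and Gli1 by -0.26 (adjusted p = 0.567). In the Notch list 2 of 20 members rose and 1 fell, near the 8.15% and 6.16% of all genes. Jag1, a ligand, rose from -0.11 and -0.18 to 0.75 and 1.39, and its call was lost without E16.5 replicate 2. Nrarp rose and Mfng fell among the remaining 19 Notch genes, and over leaving out each array in turn 0 to 3 of the 20 rose and 0 to 3 fell.

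In the retinoid list 3 of 18 members rose and 5 fell, against 8.15% and 6.16% of all genes, and 2 rose and 4 fell without E14.5 replicate 2, and 2 fell without E16.5 replicate 1. Under quantile normalization 5 rose and 8 fell. Of 7 enzymes Aldh1a1 rose, as given above, while Aldh1a2 differed by 0.11 and Aldh1a3 by 0.50 without a call, and Dhrs3, which turns retinaldehyde back into retinol, fell from 0.37 and 0.92 to -0.37 and -0.30. Of 5 carriers and storage proteins Rbp4, the retinol carrier, rose from -1.83 and -1.88 to -0.29 and -0.51, by 1.46 (SE 0.16, 2.75-fold, adjusted p = 1.67e-05). Lrat, which stores retinol as esters, rose by 0.76, and Stra6, the receptor for the carrier, fell by 0.61. Of 6 receptors Rarb, Rarg and Rxrb fell, Rxrb from 0.39 and 0.73 to -0.11 and -0.09, and 0 rose.

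Androgen and other steroid signalling had 4 rises and 4 falls among 26 measured genes, against 8.15% and 6.16% of all genes. Leaving out either E16.5 array gave 2 and 2, and leaving out E14.5 replicate 1 gave 8 and 2. Hsd11b2, which inactivates glucocorticoid, fell from 1.30 and 1.37 to 0.59 and 0.57, by 0.75 (SE 0.12, adjusted p = 0.000614). It rose by 1.16 in efferent duct, and its difference in change was -0.92 (adjusted p = 0.00434). Greb1, a target of steroid receptors, rose from -0.92 and -1.08 to 0.07 and 0.01. Fhl2, a coactivator of steroid receptors and of smooth muscle genes, rose from -0.53 and -0.40 to 0.28 and 0.47, more than in the other ducts (1.05, adjusted p = 0.0224). Pgr, the progesterone receptor, rose by 0.61, and Tmprss2, an androgen target in prostate, fell by 1.03.

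Of the posterior HOX genes, which mark the lower part of the body axis, 4 of 14 rose and 0 fell, with 3 rises without E14.5 replicate 2 and 2 without either E16.5 array. Of all genes 8.15% rose and 6.16% fell. Hoxd10 rose from -0.18 and -0.43 to 0.92 and 0.69, by 1.11 (SE 0.18, adjusted p = 0.000544). Hoxd11 rose from -0.44 and -0.68 to 0.36 and 0.34, by 0.92 (SE 0.14, adjusted p = 0.00037). The change exceeded that of the other ducts for Hoxd10 by 1.08 (adjusted p = 0.0185) and for Hoxd11 by 1.09 (adjusted p = 0.00341). Hoxa10 rose by 1.28 and Hoxa11 by 0.61, and both calls were lost without E14.5 replicate 2. Of 19 anterior HOX genes 4 rose and 0 fell, against 8.15% and 6.16% of all genes, and 2 rose without E14.5 replicate 2 or either E16.5 array. Members also fell in other settings, with 3 rises and 3 falls without E14.5 replicate 1 and 6 and 3 under quantile normalization. Hoxd3 went from -0.23 and -0.18 to 0.82 and 0.86. At E18.5 Hoxd10 was at 0.20 and 0.01 and Hoxd11 at -0.20 and -0.01.

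Among 23 transcription factors of the Wolffian duct and its segments 1 rose and 3 fell, and 1 fell without E16.5 replicate 1. Tcf21, a factor of urogenital mesenchyme, rose from -0.05 and -0.49 to 0.54 and 0.37, and its call was lost without E14.5 replicate 2. Sall1 fell from 0.93 and 0.55 to -0.65 and -0.25, Nr2f1 fell from 0.75 and 0.35 to -0.21 and -0.17, and Eya1 fell by 0.57 (adjusted p = 0.0462). Emx2, Lhx1 and Pax8, factors that the Wolffian duct needs, differed by 0.23, 0.04 and -0.24 and were not called. For this list the shares of all genes were 8.15% higher and 6.16% lower.

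Cell cycle genes had 15 rises and 4 falls among 54, against 8.15% and 6.16% of all genes, with a median of 0.11. The counts were 9 and 5 without E14.5 replicate 2, and 9 rose without either E16.5 array. Of 24 genes of G2 and mitosis 10 rose and 0 fell. Prc1, which bundles the spindle midzone, rose from -0.16 and -0.46 to 0.52 and 0.50, by 0.82 (SE 0.13, adjusted p = 0.000477). Birc5, survivin of the chromosomal passenger complex, rose from -0.18 and 0.01 to 0.52 and 0.65. Mki67, the proliferation marker, differed by 0.00 and Aurka by 0.00. The inhibitors Cdkn1b and Cdkn2c rose as well, Cdkn2c from -1.28 and -1.14 to -0.02 and 0.02, while Cdkn1a and Cdkn1c fell. Ccnd1, cyclin D1, fell from 0.12 and -0.09 to -0.97 and -1.05, with -0.17 and 0.38 at its 2 other probe sets.

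Immediate early genes, which respond to serum and handling within minutes to hours, had 7 rises and 0 falls among 22, with 6 rises without E14.5 replicate 2 and 4 without E16.5 replicate 1. Ccn2, connective tissue growth factor, rose from -1.64 and -1.91 to -0.46 and -0.50, by 1.30 (SE 0.14, adjusted p = 1.04e-05), and exceeded the other ducts by 1.45 (adjusted p = 0.000386). Fos rose from -1.06 and -1.47 to 0.02 and -0.37. Of 19 genes of cholesterol synthesis 5 rose and 0 fell, with a median of 0.34 with 2 rises without E14.5 replicate 2 and 1 without E16.5 replicate 2. Ebp rose from -0.61 and -0.45 to 0.18 and 0.11. For the immediate early and the cholesterol list the shares of all genes were 8.15% higher and 6.16% lower.

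Of 25 secreted proteins of the adult epididymis 4 rose and 2 fell, and 3 and 3 without E14.5 replicate 1. Besides Lcn2, Spink8, a protease inhibitor, rose from -0.08 and -0.11 to 1.41 and 1.38, by 1.49 (SE 0.20, 2.82-fold, adjusted p = 0.000113), and exceeded the other ducts by 1.09 (adjusted p = 0.0343). Clu, clusterin, and Gpx3, an extracellular glutathione peroxidase, each rose by 0.59. Mfge8 fell from 0.09 and 0.45 to -0.48 and -0.44. Lcn5, Lcn8 and Gpx5, which the adult tissue secretes, differed by -0.19, -0.07 and 0.08 and were not called. For this list the shares of all genes were 8.15% higher and 6.16% lower.

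**Figure D5:**
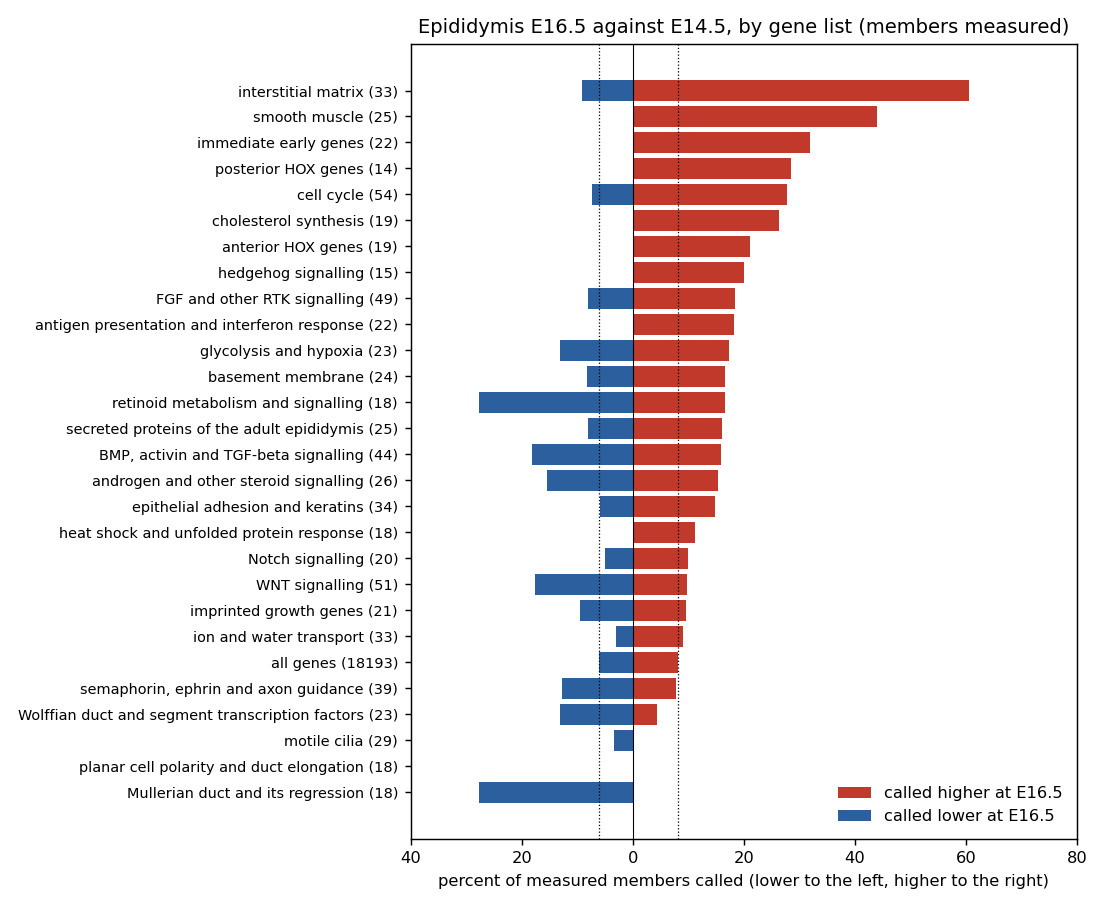
Percent of the measured members of each gene list called lower (bars to the left) and higher (bars to the right) at E16.5, with the number measured in brackets. Dotted lines mark the share of all genes, 6.16% lower and 8.15% higher. The interstitial matrix and smooth muscle lists reach farthest to the right, with 20 of 33 and 11 of 25 members higher, and the Mullerian list has bars to the left alone, with 5 of 18 lower.

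The remaining process lists had 1 to 8 calls each, against 8.15% of all genes higher and 6.16% lower. Antigen presentation and interferon response had 4 rises and 0 falls among 22, and 1 rise without E14.5 replicate 2. Glycolysis and hypoxia had 4 rises and 3 falls among 23, with Adm, the vasodilator adrenomedullin, higher by 1.06. Semaphorins, ephrins and axon guidance genes had 3 rises and 5 falls among 39, and 2 and 2 without E14.5 replicate 2. In that list Efnb1 fell from 0.89 and 0.86 to -0.12 and -0.57, and Ntn1, netrin, rose from -0.92 and -1.22 to 0.00 and -0.01. Ion and water transport had 3 rises and 1 fall among 33. Imprinted growth genes had 2 rises and 2 falls among 21, heat shock genes 2 rises and 0 falls among 18, and motile cilia genes 0 rises and 1 fall among 29. Without E14.5 replicate 2 the glycolysis list had 3 rises and 0 falls, the ion transport list 2 and 0, the imprinted list 0 and 3, and the heat shock and cilia lists had 0 of both.

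The erythroid list held the largest falls of all list members. The globins of the embryo fell, Hbb-y from 7.69 on both E14.5 arrays to 2.80 and 1.74, Hba-x from 4.21 and 4.43 to 1.2 and 0.71, and Hbb-bh1 from 2.58 and 2.65 to 0.24 and 0.03. Alas2, the heme synthesis enzyme of red cells, rose from 0.26 and 0.17 to 1.44 and 1.43. In all, 1 of 12 erythroid markers rose and 3 fell, against 8.15% and 6.16% of all genes. The mean log2 ratio of the list was 1.34 and 1.35 at E14.5 and 0.54 and 0.43 at E16.5. The difference of Hbb-y was -5.42 in epididymis, -4.97 in vas deferens and -6.14 in efferent duct, and its call in epididymis was lost under quantile normalization. Globin genes share sequence, so probe sets may read more than 1 of them.

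Markers of other cell types were examined as lists, beside 8.15% of all genes higher and 6.16% lower. Of 18 endothelial genes 4 rose and 3 fell, with 1 and 0 without E14.5 replicate 2 and 5 and 6 without E14.5 replicate 1. In that list Gpihbp1 of capillaries rose from -0.80 and -0.66 to 0.41 and 0.17, and Kdr, the VEGF receptor, fell by 0.69. In limma's fit 0 of 20 macrophage, 0 of 13 testis, 0 of 11 germ cell and 0 of 9 adipocyte markers were called. Under quantile normalization 4 macrophage and 1 testis marker were lower and 1 adipocyte marker was higher, with the probe sets of a gene averaged 3 macrophage markers were lower and 1 adipocyte marker higher, and without E14.5 replicate 1 each of the 4 lists had 1 call. Neural markers had 1 rise and 1 fall among 16, and kidney markers 1 and 1 among 13. Mesothelial markers had 1 and 0 among 10, skeletal muscle 0 and 1 among 17 and adrenal 0 and 1 among 7. None of these lists kept its counts without E14.5 replicate 2. The median difference of the mesothelial list was 0.08 with that array and -0.11 without it. The duct mesenchyme markers had 3 rises and 1 fall among 9, with 0 and 1 without E14.5 replicate 2, and a mean of 0.02 and -0.32 at E14.5 against 0.01 and -0.06 at E16.5. The part of any cell type in the changes above was not tested.

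The E14.5 arrays differed most in the following genes. The widest gaps were Mbtps1, at 1.45 and -2.33, Grb10, at 0.86 and -2.70, Tug1, at 0.27 and -2.93, Lims1, at 0.49 and -2.37, and Scd2, at 1.63 and -1.21, all lower in replicate 2. Those most above replicate 1 in replicate 2 were Herc4, Eif4h, Prss22, Evl and Armc9, by 1.38 to 2. Of these 10 only Tug1, a long noncoding RNA, was called, with a difference of 2.35 (SE 0.60, adjusted p = 0.0141) made of 0.75 against replicate 1 and 3.95 against replicate 2. Its 2 other probe sets differed by -0.04 and 0.15.

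Calls that rest on single arrays are named here once. Among the list members named above as changed, the call was lost without E14.5 replicate 2 for Actg2, Cdkn1a, Col4a5, Eya1, Fbn2, Hhip, Igf1, Kdr, Lama5, Lrat, Mfng, Stra6 and Tmprss2, besides those already given. It was lost without 1 of the E16.5 arrays or E14.5 replicate 1 for Bambi, Ccnd1, Cldn7, Clu, Dsg2, Fhl2, Fos, Nrarp, Pgr, Rarb, Rarg and Sall1. When a gene's probe sets were averaged it was lost for Ccnd1, Cdkn1b, Egfr, Ntn1, Pgr, Tmprss2 and Znrf3, with the probe set chosen by other groups for Efnb1 and Tpm2, and under quantile normalization for Clu, Lama2 and Pgr. All of the genes in this paragraph kept their direction in those settings.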

How the data were processed

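Total RNA of 24 samples was measured on Affymetrix arrays. The deposited values are a ratio on a linear scale, made by the authors with RMA per the submitters' processing notes (settings not given in the sources used here) and, from the values, divided by each row's median: that median was 1 within 1e-04 in 99.96% of 45101 rows. The log2 was taken. Of 34945 probe sets with exactly 1 symbol, the 1 with the largest variance over all arrays stood for each of 18193 genes. Symbols were matched to the GRCm38.p6 name table (34741 matched, 0 changed).

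Limma 3.58.1 in R 4.3.3 fitted 12 group means with two-sided moderated tests and Benjamini-Hochberg adjustment over the 18193 genes at 0.05. It was also run on simulated data with the same spread for a gene in all groups. That run cannot show how calls fare where the E14.5 arrays vary more than those of E16.5. With 2 arrays against 2, an exact permutation test cannot go below p = 0.333; precision is limited by their number. The members, 27 process lists and 13 marker lists (849 of 917 genes measured) were chosen with earlier results of these data known, and lists are described by counts and medians. Ranked genes were the 12 in each direction that were called, did not overlap between ages and had the largest difference from the nearer E14.5 array, 6 in each direction also called against other tissues, and 5 in each direction with the widest gap between E14.5 arrays, leaving out predicted genes and families with shared sequence. Members of lists were picked to be named after their values were seen. Settings varied were scaling, probe set, variance filter, arrays in the fit, array weights, a replicate block and each epididymal array left out.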

Additional observations from a re-analysis of the deposited data

Results flagged for a closer look

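Among the ranked genes are 12, 6 in each direction, whose change between E14.5 and E16.5 also differed from that of the other ducts. They were picked because limma's contrast with the mean of efferent duct and vas deferens called them. Their number and their calls in that contrast therefore follow from the rule of ranking. Of these 12 genes 6 had a higher change in epididymis. The difference in change was 2.09 for Mkx, 2.01 for Irs4, 1.63 for Myocd, 1.25 for Pdlim3, 0.87 for Ripor2 and 0.85 for Maob. Pdlim3, Ripor2 and Maob also rose in both other ducts, so for these genes the difference is one of size. Irs4 and Myocd rose in vas deferens, by 0.77 and 1.53, and differed by 0.40 and -0.55 in efferent duct without a call. The other 6 had a lower change in epididymis, with -2.01 for Chd4, -1.98 for Wnk1, -1.26 for Notum, -0.96 for Rbfox3, -0.92 for S1pr3 and -0.91 for Rabl6. Of these, Notum, Rbfox3, S1pr3 and Rabl6 also fell in vas deferens, with differences of -1.37, -0.51, -0.54 and -0.60. Chd4 and Wnk1 rose there, by 0.94 and 1.67. In efferent duct Notum rose by 1.18 and the others were not called.

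Against vas deferens alone the difference in change was 1.00 for Pdlim3 (adjusted p = 0.0587), 0.62 for Ripor2 (adjusted p = 0.177), 0.59 for Myocd (adjusted p = 0.569), -0.66 for Rabl6 (adjusted p = 0.0844), 0.01 for Notum (adjusted p = 0.999) and -0.66 for S1pr3 (adjusted p = 0.057). Rabl6, a GTPase-like protein, stood at 0.61 and 0.63 at E14.5, -0.69 and -0.59 at E16.5 and 0.43 and 0.52 at E18.5, and its 4 other probe sets differed by -0.45 to 0.16. Rbfox3, a splicing factor of neurons, fell from 1.32 and 1.13 to 0.00 and -0.16. S1pr3, a receptor for sphingosine 1-phosphate, fell from 0.06 and 0.21 to -1.09 and -1.04, with -1.03 and -0.66 at 2 other probe sets.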

How the results depend on the processing

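Counts of calls moved with the setting, and the cause was not tested. Under quantile normalization 4584 genes were called, 2290 higher and 2294 lower, 481 and 389 of them at 2-fold or more, and 1172 differed from the other tissues. With the mean of all probe sets 134 were higher and 34 lower at 2-fold or more. Without the early efferent duct and late vas deferens arrays 1759 were lower, and with array weights 706. Leaving out 1 epididymal array gave 956 to 3918 calls, 612 to 2151 higher and 344 to 1767 lower, with 208 to 748 higher and 72 to 188 lower at 2-fold or more, the lone array being assumed to vary like the other groups. The contrast with other tissues was rerun for 1 array alone, E14.5 replicate 2, and gave 134 calls without it. It gave 271 calls with vas deferens alone. Of 207 list members called, 80 kept their call and direction under all 13 settings that tested them, and 117 kept it without E14.5 replicate 2. The difference of Col4a4 was -0.24 under quantile normalization, that of Meg3 -0.02 with the mean of probe sets, and that of Wnt5a -0.08 with the probe set of largest variance over other groups. The ranked genes had to be called and to lie far from each E14.5 array alone. That they keep a call therefore follows in large part from the ranking. Their calls between the ages were followed over the settings, but their calls against the other ducts were not followed by gene. Of 28 ranked genes, the calls of all but Wnk1 were kept under every setting.

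Deviations of same-numbered arrays of the 2 ages correlated at 0.177, and at -0.422 to 0.388 over 66 pairs of groups, so the numbers were not taken to pair samples. With the replicate block, as a single term for all groups, 2603 genes were called, 1488 higher and 1115 lower, and 285 differed from the other tissues. The block nested in tissue and age could not be fitted, since it leaves no residual degrees of freedom.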
